A study of Homo sapiens with 8 samples.

Results

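Gene expression of H460C was compared with that of H460, the parental cell line, on 4 of the 8 dual-color arrays of the series, chosen as every array on which H460C RNA was hybridized. H460 is an established human non-small cell lung cancer (NSCLC) line, grown attached to plastic in RPMI with fetal bovine serum. H460C is the population of cancer stem cells (CSCs) that the study obtained from it by growth without attachment, in DMEM/F12 with N2 supplement, BSA (0.4%), Hepes (5 mM), glutamine (2 mM), EGF and FGF-b (20 ng/mL). Neither population was described as carrying a transgene, a deletion or a drug treatment. The other 4 arrays held H460R, cells that had been exposed to cisplatin (0.5 µg/mL for 72 h), and they are used only to set values side by side. H460C was represented by 2 RNA samples, and each was hybridized on 2 arrays, once with H460C in Cy3 and once with H460C in Cy5. The labels name 1 H460 RNA for all 8 arrays. H460C differed from H460 in the medium, the lack of serum, the added growth factors and the lack of attachment together, so these cannot be told apart.

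Growth as floating spheres in serum-free medium with EGF and FGF is a standard way of enriching cells with stem cell properties from a tumor line, since most attached tumor cells die or stop dividing when they lose their substrate. Cells that lack serum also lack its lipoproteins, the main outside source of cholesterol, and its protease inhibitors and matrix proteins. The inner cells of a sphere are farther from the medium than cells in a monolayer.

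The deposited log2 ratios of H460C over H460 were used, after averaging the arrays of each dye swap. Of the 41000 probes, 25868 to 28499 per array passed the software's background test in the H460C channel and 24404 to 26966 in the H460 channel, here called well above background. After removal of dim probes, 25528 probes were tested, for 19912 genes, of which 12170 had a current symbol. The arrays of the same dye orientation were nearly alike (r = 0.990 across probes for both orientations), and arrays of opposite orientation correlated with r between 0.755 and 0.761. The difference between the RNA samples in one orientation was unrelated to the same difference in the other (r = 0.0182 across probes), so no difference between the samples could be seen beyond hybridization noise. They were counted as 1 sample, no SD is given, and the values of the arrays are printed instead, in the order sample 1 with H460C in Cy3, sample 1 in Cy5, sample 2 in Cy3 and sample 2 in Cy5. The false discovery rates (FDR) of Rank Products, the test named in the methods of the study, still treated them as 2 samples. They leave out the spread between independent cultures and that of the H460 RNA. The number of arrays limits the precision.

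Rank Products asks whether a gene ranks near the top or the bottom of both ratios. At an FDR of 0.05, 111 genes (0.557% of those tested) were higher in H460C and 112 (0.562%) were lower, 87 and 76 of them with a symbol. The smallest ratio called was 2.20 on the log2 scale among the higher genes, and 1.98 in size among the lower ones. A second description was therefore used, a ratio of at least 2-fold in the same direction on every array with a value, for genes with a value on at least 3 of the 4. By that rule 604 genes (3.03%) were higher and 490 (2.46%) were lower, and it included 110 of the 111 and 112 of the 112 genes called by Rank Products (FADS2, with 2 arrays, could not meet it). The genes measured in both channels numbered 17936. They held 96 of the genes called higher and 100 of those called lower, and 538 and 450 of those past 2-fold. The remaining genes passed the filter on dim probes through the H460C or the H460 channel alone. The median log2 ratio over all genes tested was -0.03, with quartiles at -0.30 and 0.27. Because the test is one of ranks, calls depended on the ratios in use. With the log ratio of the scanner software, 48 of the 111 genes called higher and 53 of the 112 called lower kept their call. Of 74 called genes examined singly, 33 lost their call with that ratio, and in none of them did the direction change.

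**Figure D1:**
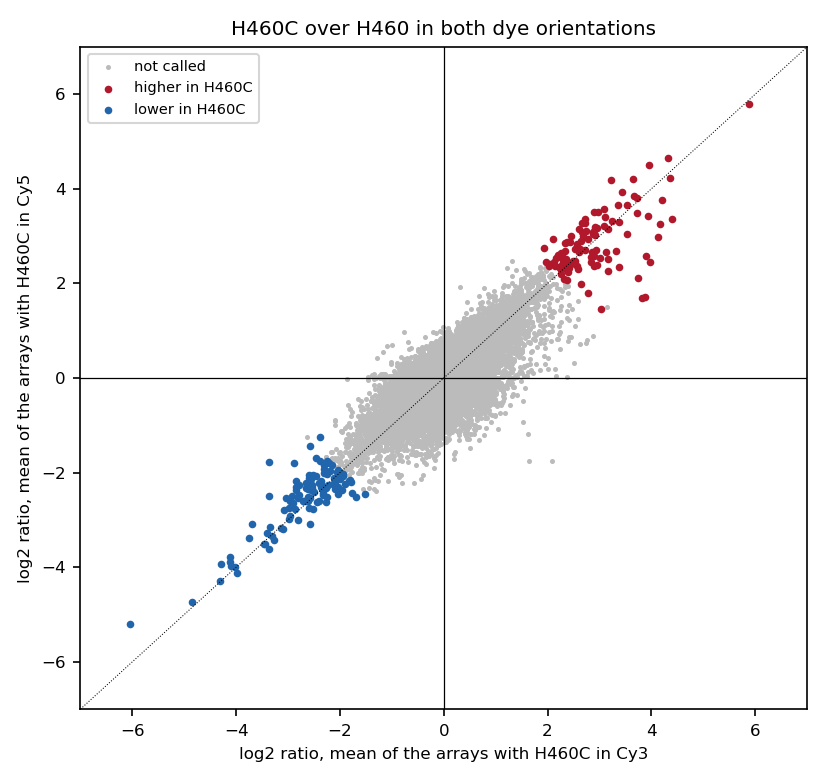
Log2 ratio of H460C over H460 for each gene with a value in both dye orientations, as the mean of the arrays with H460C in Cy3 (x axis) and of those with H460C in Cy5 (y axis). Red points are genes called higher (110 of the 111, since FADS2 has no value in Cy3), blue points the 112 called lower and grey points the rest; the called genes lie at both ends of the diagonal.

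The gene with the largest ratio was S100A8, a calcium-binding alarmin best known from neutrophils. Its log2 ratios were 5.62, 5.88 and 5.97 on the 3 arrays with a usable spot (the spot of sample 1 in Cy3 was an outlier). The mean was 5.77, or 54.7-fold (FDR = 3.9e-05, Rank Products). S100A9, its partner in the calprotectin dimer, had ratios of 3.63, 4.24, 3.68 and 4.18, a mean of 15.3-fold (FDR = 0.00134). Both genes were well above background in every channel. RNA from granulocytes was looked for with 7 marker genes, and none of these was well above background on all 4 arrays in either channel. FPR1 was on 3 arrays in H460C and CSF3R on 1, and none of the 7 was on any array in H460. In RNA of whole cultures, a lower level per cell and fewer expressing cells cannot be told apart.

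Inflammatory mediators followed. IL1B, the secreted cytokine interleukin-1 beta, had log2 ratios of 4.37, 4.17, 4.36 and 4.30 (19.7-fold, FDR = 3e-04). PTGS2, the inducible cyclooxygenase that starts prostaglandin synthesis, had 4.22, 3.74, 4.18 and 3.79 (15.8-fold, FDR = 0.00111), and its other probe gave 4.16. CD86, a costimulatory receptor of antigen-presenting cells, rose 13.1-fold, with array values from 2.89 to 4.39 that spread more than those of most leading genes. In all 3 genes the lowest array was well past 2-fold, and every array was above 0.

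The other leading higher genes had varied roles. SPINK6, an inhibitor of kallikrein proteases in skin, had log2 ratios of 4.21, 4.32, 3.70 and 4.67 (18.7-fold), and PI3 (elafin, an elastase inhibitor) had 3.78, 3.66 and 3.81 (13.5-fold). AQP3, a water and glycerol channel of epithelia, rose 13.1-fold, and FGFBP1, which releases FGFs from the matrix, was not well above background in H460 on any array. Its ratio was 12.1-fold, and from the separately normalized intensities of the channels, a scale that differs from that of the ratios and is used for every such bound, it was at least 12.3-fold higher in H460C. The immediate early transcription factors JUN (12.9-fold) and EGR1 (12.8-fold), the proto-oncogene MYB (11.4-fold), the neuronal pentraxin NPTX1 (22.5-fold) and the secreted phospholipase PLA2G3 (12.2-fold) completed the 15 leading higher genes with HMGCS1. A second probe of NPTX1 gave a log2 ratio of 1.76 and one of PLA2G3 gave 0.71, and neither was called.

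Among the leading lower genes, PLA2G7, the phospholipase that degrades platelet-activating factor, had -4.80, -4.62, -4.92 and -4.86 (27.9-fold lower). RAB39B, a vesicle traffic GTPase, was 19.7-fold lower, ANXA3, an annexin, 16.7-fold lower, and DLC1, a GTPase-activating protein known as a tumor suppressor, 16.4-fold lower. For each of these genes the arrays lay within 1 log2 unit of each other.

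The other leading lower genes included the microfibril protein FBN2 (16.1-fold lower), the IGF-binding protein IGFBP7 (11.9-fold), the activin antagonist FST (11.3-fold), the collagen-binding receptor ANTXR1 (11.1-fold), the matrix protein SRPX (10.5-fold) and PXDN, a peroxidase that crosslinks collagen IV (10.1-fold). LYPD1, PIP5K1B, NRXN3 and DHRS3 were between 10.1-fold and 16.1-fold lower. One probe of NRXN3, at -1.86, was not called, and both other probes of ANTXR1 were (-3.77 and -3.71).

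**Figure D2:**
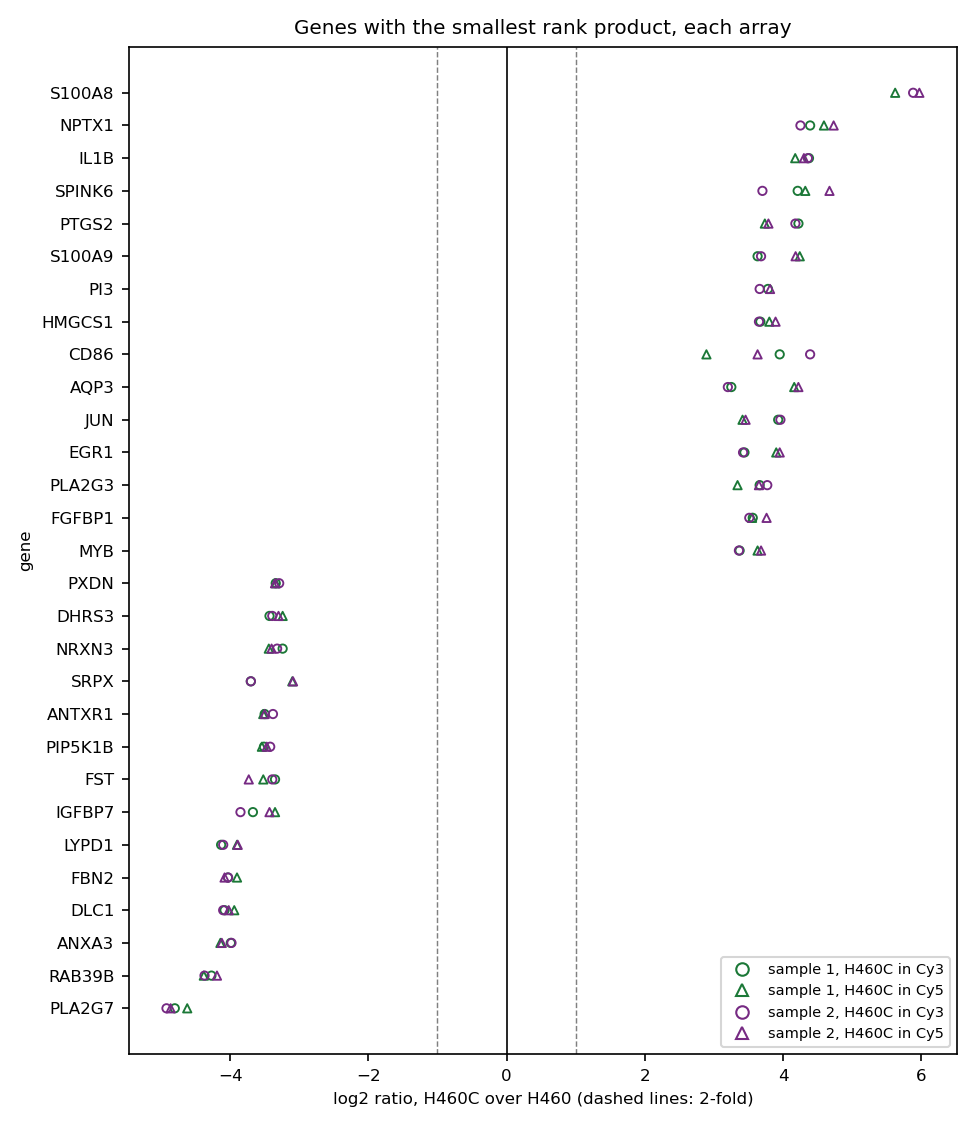
Log2 ratio of H460C over H460 on each of the 4 arrays for the leading genes of each direction, ordered by mean ratio. Circles are arrays with H460C in Cy3 and triangles those with H460C in Cy5, green for sample 1 and purple for sample 2; S100A8 lies highest at 5.77 and PLA2G7 lowest at -4.80, on average.

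Genes were then grouped by role. Sterol synthesis had the largest share of measured members past 2-fold higher on every array (75%, 15 of 20, beside 3.03% of all genes). The metallothionein list, which includes MTF1 and SLC30A1, followed (63.6%, 7 of 11). Next came chemokines and their receptors (50%, 5 of 10, but 2 of the 7 measured in both channels). DNA replication (46.9%, 15 of 32), hypoxia response (42.9%, 12 of 28) and mitosis (41.9%, 13 of 31) came after. In the other direction stood the IGF axis (42.9%, 6 of 14), the ATF4 response (39.1%, 9 of 23), integrins and cadherins (35.0%, 7 of 20) and matrix proteins (25.8%, 8 of 31), beside 2.46%. None of 30 ribosomal proteins was past 2-fold, with a median of -0.03 that moved to -0.45 with normexp and loess and to -0.37 with the scanner software's ratio. Several stood at 0 on both arrays with H460C in Cy5, among them RPL4 (-1.34, 0.0, -1.1 and 0.0) and RPS2 (0.25, 0.0, 0.52 and 0.0). The ratios of the ribosomal proteins therefore cannot show that their levels were unchanged. The groups were chosen with results of these data known, and their counts are given as descriptions.

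**Figure D3:**
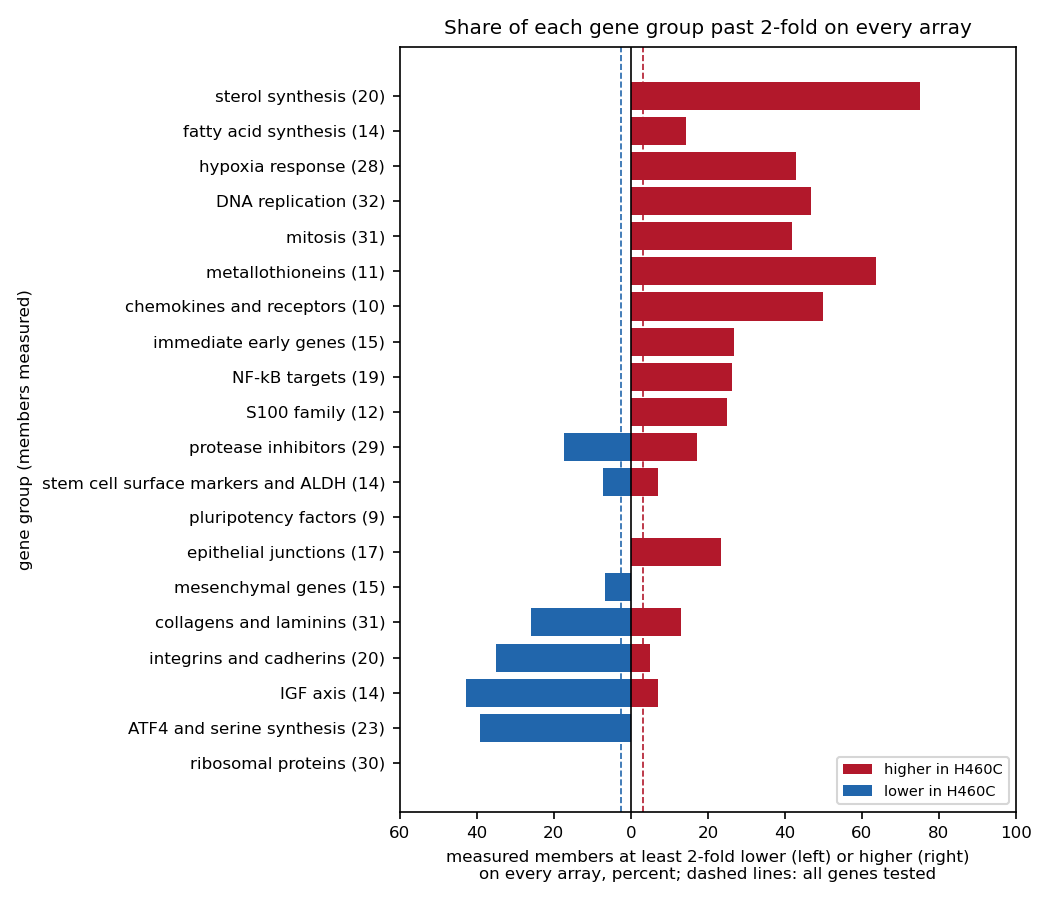
Percent of the measured members of each gene group that were at least 2-fold higher (red, right) or lower (blue, left) in H460C on every array, with the number measured in parentheses. The metallothionein group includes MTF1 and SLC30A1. The dashed lines mark all genes tested (3.03% and 2.46%); sterol synthesis reaches 75% and ribosomal proteins and pluripotency factors have none.

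Cholesterol is made from acetyl-CoA by a chain of enzymes whose genes are switched on together by the transcription factor SREBP2 when membranes lack sterol. All 20 enzymes examined were measured in both channels. The median log2 ratio was 1.74, 19 were above 0, and 6 were called higher by Rank Products and none lower. HMGCS1, which makes HMG-CoA, had log2 ratios of 3.67, 3.80, 3.65 and 3.89 (13.5-fold, FDR = 0.00175), a lower bound in part since 2 arrays were saturated in H460C. ACAT2, which joins acetyl-CoA units at the start of the chain, had 2.90, 3.42, 2.90 and 3.59 (9.21-fold, FDR = 0.00788). SQLE, squalene epoxidase, rose 6.21-fold, IDI1, which isomerizes isopentenyl diphosphate, 5.41-fold, TM7SF2, a sterol reductase, 5.21-fold, and SC5D, a sterol desaturase, 5.07-fold. These enzymes span the start, the middle and the end of the pathway.

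LSS, which closes squalene into the sterol rings, MSMO1, EBP, CYP51A1, FDPS, FDFT1 and HSD17B7 were past 2-fold on every array without passing Rank Products, with means between 1.61 and 2.10. The mevalonate kinases stood lowest. MVK had 0.97, -0.02, 1.08 and 0.03, so that its arrays divided by dye, and PMVK lay below 0 on all arrays (-0.55, -1.11, -0.53 and -1.04). With the scanner software's ratio only HMGCS1 of the 6 kept its call, at unchanged direction, and averaging all probes of a gene ended the calls of TM7SF2 (1.78) and SC5D (2.04).

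Of 13 genes of sterol sensing, uptake and export, 1 was called, INSIG1, which holds SREBP in the endoplasmic reticulum and is itself an SREBP target. It had log2 ratios of 3.02, 2.54, 3.01 and 2.53 (6.84-fold, FDR = 0.0199). SREBF2, the gene of SREBP2, had a ratio of 0.10 and the sterol exporter ABCA1 of -0.51, and neither was called. Of 14 fatty acid genes, 2 were called higher and 2 were past 2-fold on every array (14.3%, beside 3.03% of all genes), with a median of 0.72. FA2H, which makes hydroxylated fatty acids, was called at 2.21, 2.35, 2.24 and 2.36 (4.89-fold, FDR = 0.0423), a call that leaving out either RNA sample ended. FADS2, a desaturase of polyunsaturated fatty acids, was called at 2.90, a value that rests on the arrays with H460C in Cy5, since the spots of the other orientation were outliers. Its second probe gave 0.93. FASN, fatty acid synthase, had 0.98, 0.25, 1.15 and 0.28.

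The upstream sequences of the groups were searched for letters known from textbook regulatory sites, on both strands of the 250 bases before each gene start that RefSeq gives on GRCh38.p14. A gene with several starts gave several windows, and each was counted, so the windows are not independent. The box CCAAT, bound by NF-Y, which works with SREBP2, was present in 75% of 20 windows of 15 sterol synthesis genes and in 32.0% of all 35116 windows. The sterol element TCACNCCAC was in none of the 20 and in 0.883% of all. The window of HMGCS1 is shown because it led the group. It lies on the minus strand at chr5:43313413-43313662, and capitals mark the 2 copies of CCAAT, both on the opposite strand (ATTGG), at positions -155 and -100 from the start.
HMGCS1: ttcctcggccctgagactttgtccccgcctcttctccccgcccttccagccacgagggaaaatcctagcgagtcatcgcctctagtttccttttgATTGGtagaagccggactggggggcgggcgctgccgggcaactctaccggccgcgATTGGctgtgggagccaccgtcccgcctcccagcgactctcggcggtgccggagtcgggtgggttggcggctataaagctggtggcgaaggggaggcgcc

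Genes of DNA replication and mitosis were higher as groups, although single genes seldom reached the ranks that the test requires. Of 32 replication genes, 32 had a ratio above 0, with a median log2 ratio of 1.17, and 15 were past 2-fold on every array. CDC45, which with the MCM and GINS proteins forms the replicative helicase, was the 1 gene called, at 2.33, 2.38, 2.26 and 2.39 (5.06-fold, FDR = 0.0392), and it lost that call with the scanner software's ratio (2.47). GINS2 had 2.07, 2.09, 2.01 and 2.17 (4.24-fold, FDR = 0.059). MCM7 (3.49-fold), the sliding clamp PCNA (2.94-fold), RRM2, which supplies deoxynucleotides (2.77-fold), and E2F1, a transcription factor of the S phase (2.7-fold), were all past 2-fold on every array. The 4 arrays agreed in sign for each of these genes, with the widest gap in MCM7, from 1.56 to 2.04.

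Of 31 mitotic genes, 30 had a ratio above 0, with a median of 1.05, 13 were past 2-fold on every array, and none was called by Rank Products. The cyclin-dependent kinase CDK1 had log2 ratios of 1.81, 1.72, 1.80 and 1.74 (3.40-fold, FDR = 0.0974). Its partner CCNB1 had 1.35, 1.92, 1.27 and 2.12 (3.17-fold), and the mitotic kinase PLK1 had 1.5, 1.71, 1.57 and 1.66 (3.05-fold), with a second probe at 0.82. The phosphatase CDC25B was the 1 gene below 0 (0.13, -0.27, 0.12 and -0.23), and its arrays divided by dye. Group medians on single arrays lay between 1.00 and 1.25 for replication and between 1.03 and 1.1 for mitosis.

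The E2F site TTTCCCGC was found in 22.2% of 36 windows of 28 replication genes and in 1.39% of all windows, and its variant TTTGGCGC in 11.1% and 0.550%. The cell cycle element TTTGAA was found in 37.1% of 35 windows of 26 mitotic genes and in 13.3% of all, and CCAAT in 74.3% of the mitotic windows and 58.3% of the replication windows. Shown are the members with the highest ratio whose most upstream window holds the site, GINS2 with TTTCCCGC in capitals (read on the other strand) at chr16:85688955-85689204, minus strand, and CDK1 with TTTGAA in capitals at chr10:60778081-60778330, plus strand. A match describes the letters and not the binding of a factor.
GINS2: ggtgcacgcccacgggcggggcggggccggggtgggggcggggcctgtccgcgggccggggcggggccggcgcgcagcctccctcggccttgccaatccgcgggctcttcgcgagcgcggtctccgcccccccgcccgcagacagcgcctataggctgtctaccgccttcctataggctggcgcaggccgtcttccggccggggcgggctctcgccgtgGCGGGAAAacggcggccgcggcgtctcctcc
CDK1: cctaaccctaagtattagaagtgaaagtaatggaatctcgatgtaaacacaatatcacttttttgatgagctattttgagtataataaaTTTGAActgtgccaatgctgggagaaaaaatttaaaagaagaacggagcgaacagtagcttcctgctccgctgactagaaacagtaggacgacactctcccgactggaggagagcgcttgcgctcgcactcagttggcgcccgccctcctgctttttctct

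Cells short of oxygen stabilize the factor HIF1A, which raises genes of glycolysis, acid and oxygen balance and vessel growth. All 28 genes of the hypoxia list had ratios above 0, with a median of 0.94, 12 were past 2-fold on every array and 4 were called. ANKRD37 had log2 ratios of 2.33, 2.80, 2.35 and 2.91 (6.05-fold, FDR = 0.0267). ADM, the vasodilator adrenomedullin, had 2.28, 2.62, 2.22 and 2.65 (5.44-fold, FDR = 0.0315). EGLN3, a prolyl hydroxylase that marks HIF for decay (5.10-fold), and NDRG1 (4.62-fold, second probe at 0.75) were also called. All 4 calls were lost with the scanner software's ratio, at means of 2.25 to 2.83.

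The other hypoxia genes were graded. CA9, a carbonic anhydrase of the cell surface, had 1.92, 1.19, 1.95 and 1.31 (3.02-fold). HK2, the hexokinase that feeds glycolysis, had 1.59, 2.32, 1.52 and 2.28 (3.80-fold). VEGFA, the main growth factor of vessels, had 1.35, 1.19, 1.24 and 1.28 (2.40-fold), but its 3 other probes gave 0.36 to 0.42, and none of the 4 was called. The lowest were KDM3A (0.145), ALDOA (0.16), DDIT4 (0.22) and LOX (0.27). The abundant glycolytic enzymes PGK1 (0.30) and LDHA (0.46) also stood low. PGK1 and LDHA had saturated arrays, on which a ratio is compressed, and the other probes of PGK1 gave 0.85 and 1.24.

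Metallothioneins are small proteins that bind zinc and copper. Their list also holds the zinc sensor MTF1 and the zinc transporter SLC30A1. All 11 measured members of the list were above 0, with a median of 1.17. Of these, 7 were past 2-fold on every array, MTF1 included, while none was called by Rank Products. MT1F had 1.72, 2.06, 1.76 and 2.00 (3.69-fold), MT1X 1.22, 1.33, 1.17 and 1.37 (2.42-fold) and MT2A 0.41, 0.68, 0.35 and 0.86 (1.49-fold), the last with 2 saturated arrays. MTF1, the zinc sensor that switches them on, had 1.80, 1.22, 1.82 and 1.31 (2.90-fold). The MT1 genes are nearly identical in sequence, and their probes may read one another.

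The core ACGTG of the hypoxia element was found in 62.9% of 35 windows of 24 hypoxia genes and in 18.5% of all windows. The core TGCNCNC of the metal element was in 85.7% of 7 windows of 7 genes of the metallothionein list and in 49.1% of all. The windows of ANKRD37 (chr4:185396591-185396840, plus strand) and MT1X (chr16:56682220-56682469, plus strand) are shown by the same rule as above, with these letters in capitals on either strand. ANKRD37 holds 3 matches, 2 of which overlap as CACGTG, and MT1X holds 4.
ANKRD37: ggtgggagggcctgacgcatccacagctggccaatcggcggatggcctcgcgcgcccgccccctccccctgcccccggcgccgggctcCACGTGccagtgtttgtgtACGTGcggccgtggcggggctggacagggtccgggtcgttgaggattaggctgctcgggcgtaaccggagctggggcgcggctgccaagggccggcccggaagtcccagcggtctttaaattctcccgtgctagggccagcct
MT1X: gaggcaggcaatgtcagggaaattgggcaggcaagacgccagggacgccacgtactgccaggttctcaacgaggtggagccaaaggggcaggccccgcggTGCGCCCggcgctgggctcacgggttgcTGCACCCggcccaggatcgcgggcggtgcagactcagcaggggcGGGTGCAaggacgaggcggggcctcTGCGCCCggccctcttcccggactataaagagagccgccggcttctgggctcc

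**Figure D4:**
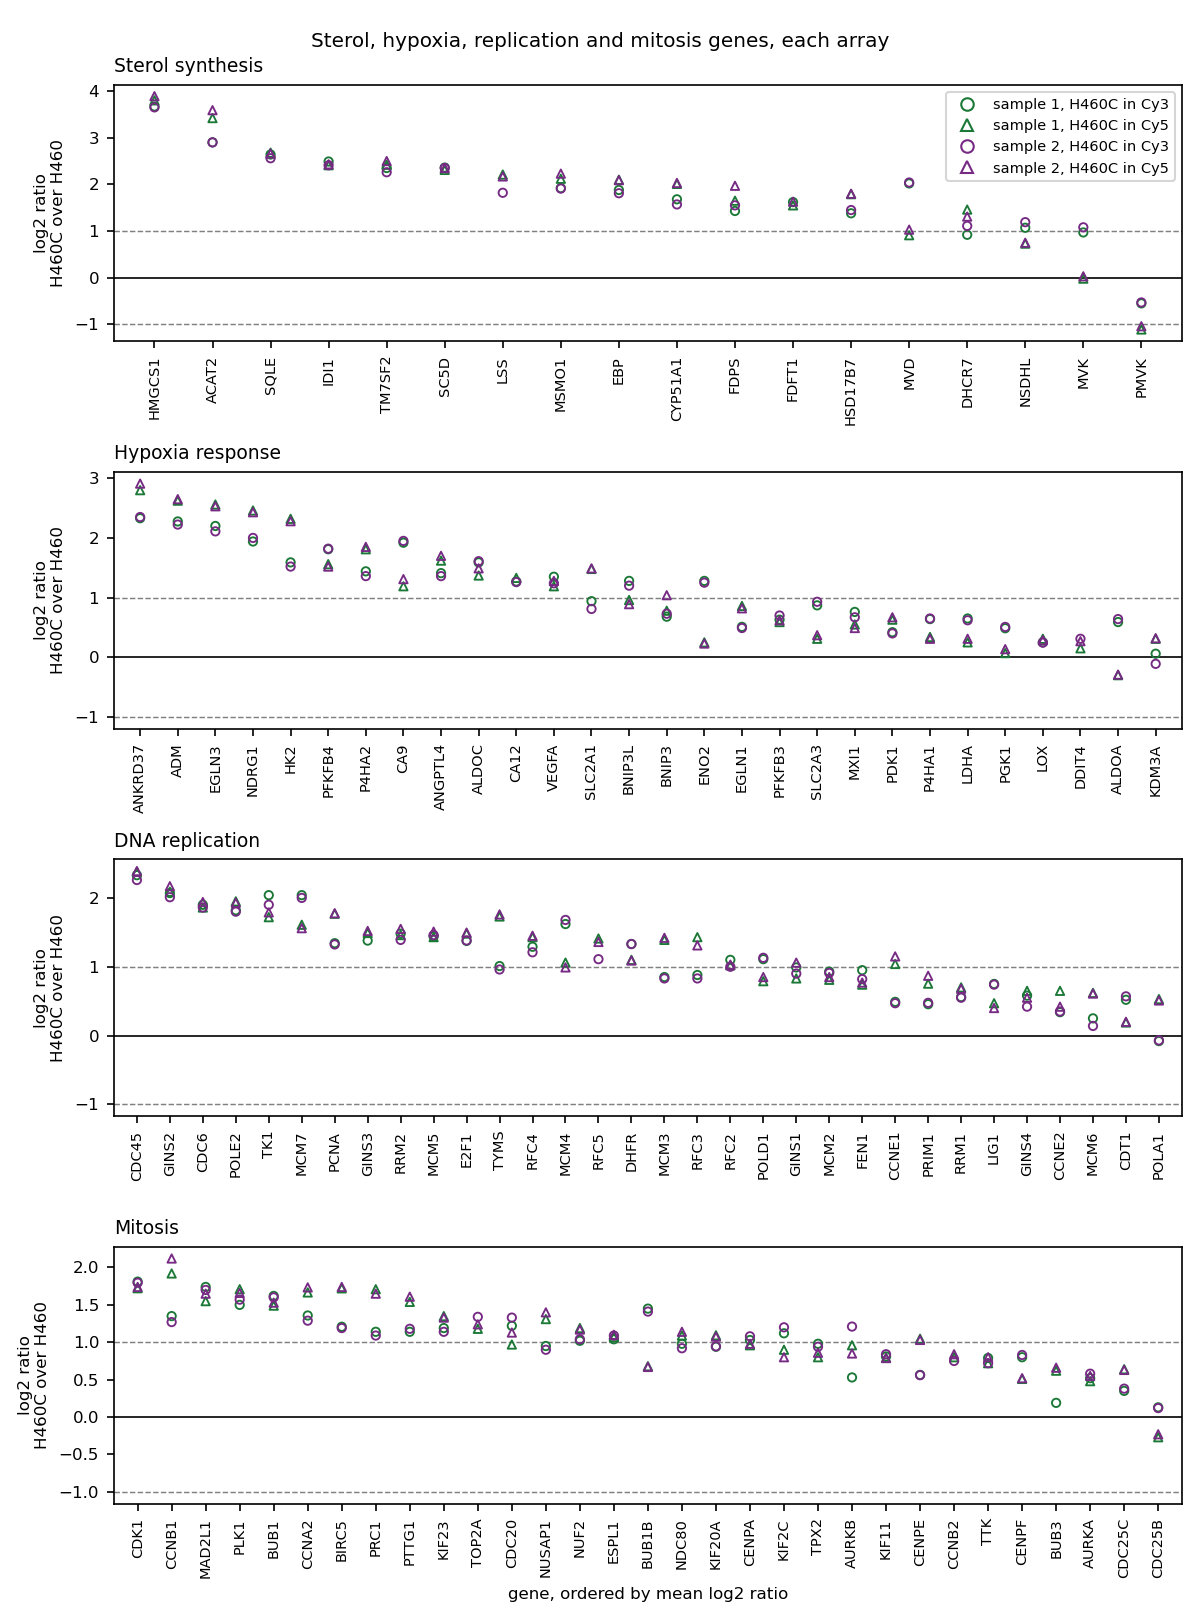
Log2 ratio of H460C over H460 on each array for the measured genes shown of sterol synthesis, hypoxia response, DNA replication and mitosis, ordered by mean ratio. Circles are arrays with H460C in Cy3 and triangles those with H460C in Cy5, green for sample 1 and purple for sample 2; dashed lines mark 2-fold, and the group medians are 1.74, 0.94, 1.17 and 1.05.

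Interleukin-1 is an early signal of inflammation, and chemokines direct the movement of cells. In the interleukin-1 family, IL1A had log2 ratios of 2.93, 3.16, 2.89 and 3.22 (8.29-fold, FDR = 0.0113) beside IL1B, and the receptors IL1R1 (-0.17) and IL1RAP (0.36) were not called, which left a group median of 0.18 over 10 genes (-0.09 with the stricter filter on dim probes). Of 10 measured chemokines and receptors, 2 were called. ACKR3, a scavenger receptor of CXCL12, had 3.44, 3.31, 3.33 and 3.31 (10.2-fold, FDR = 0.00554), and CXCR4, the signaling receptor of CXCL12, had 2.97, 2.96, 2.88 and 3.09. CXCR4 was not well above background in H460 on any array (7.86-fold by its ratio, at least 7.85-fold from the channel intensities). CXCL12 itself did not pass the filter, being well above background on 2 arrays in H460C and 1 in H460. CXCL8 (interleukin-8) was past 2-fold on every array at 3.19-fold, CCL20 at 4.17-fold and CXCL14, not well above background in H460, at 4.36-fold by its ratio (at least 4.44-fold from the channel intensities), while CXCL1 was saturated on all 4 arrays in H460C and its 0.26 is compressed. The chemokine group had to pass a filter on dim probes, which 3 of its 10 genes did through H460C alone. Over the 7 measured in both channels none was called, 2 were past 2-fold and the median was 0.88 in place of 1.42, and with no filter on dim probes it was 0.19.

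Targets of NF-kB, which interleukin-1 activates, had a median of 0.32 over 19 genes. Of these, 5 were past 2-fold higher on every array (26.3%, beside 3.03% of all genes) and none was called. NFKBIA, the inhibitor that NF-kB induces against itself, had 1.22, 1.90, 1.25 and 1.99 (3.01-fold), and SOD2, the mitochondrial superoxide dismutase, 3.0-fold. TNFAIP3, another feedback target, had 0.11, -0.54, 0.01 and -0.51, and IL6 a mean of 0.24. Of 15 immediate early genes, which growth factors switch on within minutes, JUN and EGR1 were called, and FOS had 1.78, 1.91, 1.82 and 1.84 (3.57-fold, FDR = 0.0848).

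The medium of H460C contained EGF. Among ligands of its receptor, AREG (amphiregulin) rose 6.77-fold, with log2 ratios of 2.38, 2.88 and 2.89, and EPGN (epigen) was past 2-fold on every array at 3.75-fold. AREG lost its call with the scanner software's ratio (2.90). The other ligands EREG (0.90), HBEGF (0.125), BTC (-0.04) and EGF (-0.99) were not called. The median of the 9 ligands and receptors measured was -0.04. EGFR had ratios between -0.83 and -0.61 and was not called, and ERBB2 lay between -1.74 and -1.62, with a second probe at -0.20. Feedback genes of the ERK pathway below the receptor divided. IER3 was called (5.54-fold, FDR = 0.0315), DUSP6, the phosphatase of ERK, had -0.46, -1.59, -0.46 and -1.62, DUSP1 had a mean of -0.95, and SPRY2, an inhibitor of receptor signaling, was past 2-fold lower on every array (-1.14). The group median of 15 genes was -0.12.

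Protease inhibitors moved in both directions. Of 29, 5 were called higher and 2 lower, beside 0.557% and 0.562% of all genes. Past 2-fold on every array were 17.2% in each direction, beside 3.03% and 2.46%. The median was 0.05, which fell below 0 when either RNA sample was left out (-0.11 and -0.14). Those called higher were small secreted inhibitors of the SPINK and WAP families. Beside SPINK6 and PI3 they were SLPI (9.68-fold, log2 ratios from 3.18 to 3.45), SPINK13 (8.35-fold) and SPINK1, the pancreatic trypsin inhibitor, which was not well above background in H460 (7.44-fold by its ratio, at least 7.58-fold from the channel intensities). Those called lower were the serpins SERPINB11 (-2.71, -2.60, -2.71 and -2.59) and SERPIND1, heparin cofactor II (-2.71, -2.60, -2.66 and -2.58). TIMP2, an inhibitor of matrix metalloproteinases, had a mean of -1.67. The calls of both serpins were lost with the scanner software's ratio, at -2.73 and -2.85. In the S100 family, 10 of 12 genes were above 0, but past S100A8 and S100A9 the next was S100A10 at 1.21.

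Proteins that bind insulin-like growth factors (IGFs), or resemble those that do, keep IGFs away from their receptor or act on their own. Of 14 genes of this axis 12 were below 0, with a median of -0.96, and 3 were called lower, all of them binding proteins or relatives. IGFBP7 had log2 ratios of -3.67, -3.35, -3.85 and -3.43 (FDR = 0.00269), IGFBP6 -2.30, -2.46, -2.34 and -2.40 (5.19-fold lower, FDR = 0.0225) and CRIM1 -2.29, -1.98, -2.21 and -2.08 (FDR = 0.0369). IGFBP3 was past 2-fold lower on every array at -1.54, and its second probe, at -2.23, was called. IGFBP4 went the other way (2.55, 1.08, 2.51 and 1.11). The receptors IGF1R (-0.44) and INSR (-0.04) were not called. IGFBP6 and CRIM1 lost their call with the scanner software's ratio, and CRIM1 also with the mean of its probes (-1.59).

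Attached cells hold the matrix and each other through integrins and cadherins. Of 20 measured, 4 were called lower and none higher, beside 0.562% and 0.557% of all genes. The median was -0.41 (-0.07 with no filter on dim probes and -0.04 with H460C in Cy5 only). Over the 17 measured in both channels 3 were called lower, since CDH18 passed the filter on dim probes through H460 alone. CDH18 had -3.28, -3.13 and -3.05, CDH11, a cadherin of mesenchymal cells, -2.87, -2.75, -2.86 and -2.77 (7.03-fold lower, FDR = 0.0084), CDH13, a cadherin without a cytoplasmic tail, -2.68, -2.26, -2.64 and -2.18 (5.43-fold lower), and ITGB5, a partner of integrin alpha v, -1.82, -2.18, -1.85 and -2.19. ITGB5 lay at the threshold (FDR = 0.0467) and lost its call when either RNA sample was left out. With the scanner software's ratio the calls of CDH11 (-2.88), CDH13 (-2.44) and ITGB5 (-2.03) were lost. ITGA3, ITGA7 and ITGBL1 were past 2-fold lower on every array, at means from -1.55 to -1.68. Integrin beta 1, the partner most of these share, had -0.72, 0.02, -0.66 and 0.04, so that its arrays divided by dye, and it was saturated on 2. ITGA2, a collagen receptor subunit, was past 2-fold higher on every array (1.44).

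Matrix proteins were lower on balance, with a median of -0.33 over 31 genes (-0.04 with no filter on dim probes), 3 called lower and 1 higher. FBN2 had -4.03, -3.90, -4.03 and -4.08, FBLN1 (fibulin) -2.53, -1.58, -2.41 and -1.80, with a second probe at -0.60, and THBS3 (thrombospondin) -2.04, -2.14, -1.97 and -2.11. The laminin chains LAMA1, LAMB1 and LAMC1 were past 2-fold lower on every array, at means from -1.26 to -1.81. LAMB3, another laminin chain, went the other way (1.27), as did NID2 (1.94) and COL3A1 (1.15). COL7A1, the anchoring fibril collagen of epithelia, was called higher at 2.83, 2.40, 2.84 and 2.51 (6.25-fold, FDR = 0.0253). LUM (lumican), a proteoglycan used here as a fibroblast marker, was 9.53-fold lower, and DCN (decorin) was 2.96-fold lower, without a call. The other fibroblast markers measured were COL3A1 (1.15), PDGFRB (0.18) and THY1 (-0.07), and the median of the 5 was -0.07. Of the 7 fibroblast markers on the array, 5 were well above background on all 4 arrays in H460 and 4 in H460C, PDGFRA and FAP were above it on none, and their part in the result was not tested.

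The ATF4 response supplies amino acids under stress and includes serine synthesis. Of 23 genes 19 were below 0, with a median of -0.80, 9 were past 2-fold lower on every array, none was past 2-fold higher and 1 was called. PHGDH, the first enzyme of serine synthesis, had -1.26, -2.11, -1.26 and -2.23 (3.28-fold lower, FDR = 0.0774), PCK2 a mean of -1.75, ASNS, asparagine synthetase, -1.87, -1.03, -1.93 and -1.1, and DDIT3 (CHOP), a stress transcription factor, -1.96, -1.07, -1.96 and -1.23. JDP2, a transcription factor of the AP-1 family, was the gene called (-3.35, -2.46, -3.37 and -2.52, 7.59-fold lower). ATF4 itself was at 0.21 with saturated arrays, while its other probe gave -0.60, and neither was called.

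**Figure D5:**
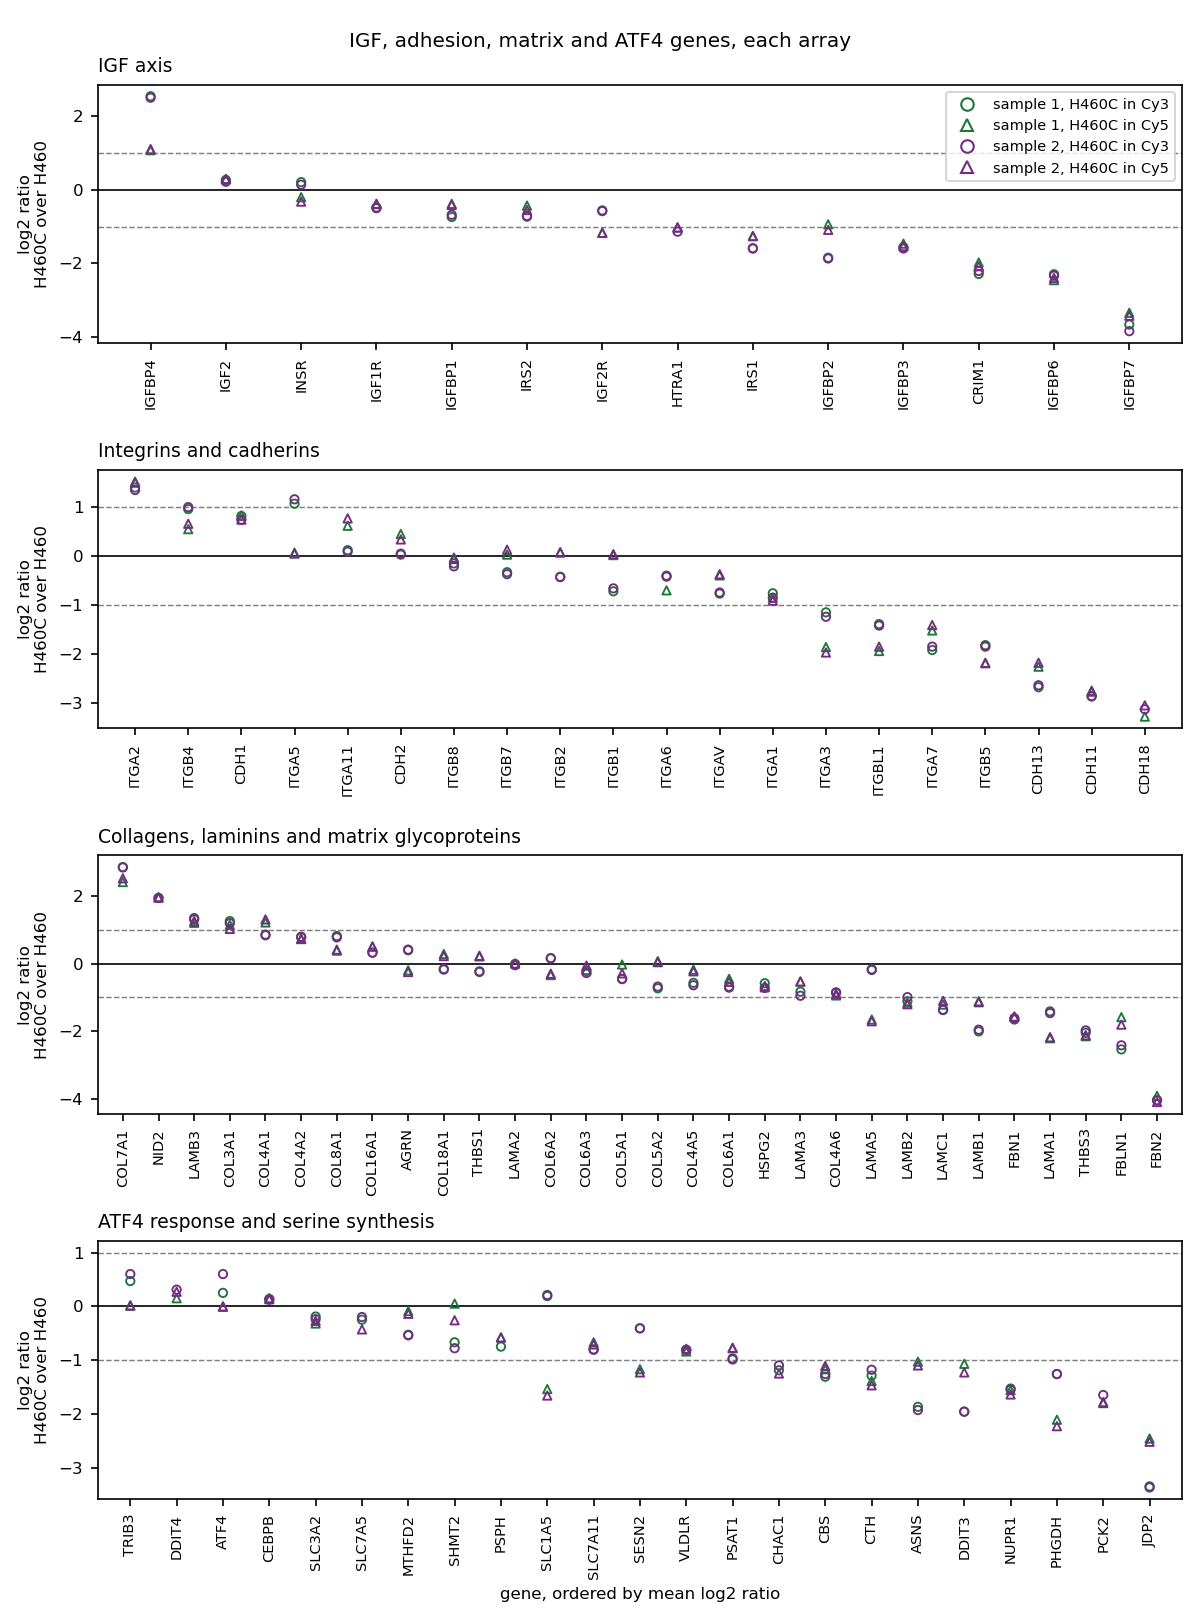
Log2 ratio of H460C over H460 on each array for the measured genes shown of the IGF axis, integrins and cadherins, matrix proteins and the ATF4 response, ordered by mean ratio. Symbols and dashed lines mark dye, sample and 2-fold as in the plot of the sterol, hypoxia, replication and mitosis genes; the group medians are -0.96, -0.41, -0.33 and -0.80.

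The label of H460C as CSCs was set against genes used to define stem cells. The study itself based the label on clonal sphere growth, differentiation in serum, tumor formation and lower sensitivity to cisplatin. By RT-PCR it reported more CD133 (the gene PROM1) and less CD44 and ALCAM in H460C, and it also reported less ABCG2. The arrays cover RNA alone. Of 14 measured surface markers and aldehyde dehydrogenases, none was called higher (0.557% of all genes were), 1 was called lower and the median was -0.08. ALDH1A1, the enzyme behind a common stem cell assay, had -2.20, -2.13 and -2.27 (4.59-fold lower, FDR = 0.0337). CD44, the hyaluronan receptor, had -0.86, -0.76, -0.87 and -0.79, ALCAM a mean of -0.28 and the drug exporter ABCG2 of -0.39. EPCAM, an adhesion protein of epithelia, was past 2-fold higher on every array (1.12, 1.57, 1.20 and 1.46). PROM1 (CD133), KIT and LGR5 were not well above background on any array in either channel, so the arrays did not measure a change in them. Of 20 pluripotency factors 9 were measured, with a median of -0.15 and none past 2-fold, a number too small to set against the 3.03% and 2.46% of all genes. Of the 11 not measured, NANOG, LIN28A, LIN28B and PRDM14 were above background on no array, and SOX2 on 2 arrays in H460C and none in H460. POU5F1 (OCT4), which has expressed pseudogenes that its probe may read, had 0.44, -0.04, 0.60 and 0.20.

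Epithelial and mesenchymal genes gave no common direction. Of 17 epithelial genes 4 were past 2-fold higher on every array and none lower, or 2 of the 13 measured in both channels, since EPCAM and ELF3 passed the filter through H460C alone. The 2 were DSP (desmoplakin, 3.74-fold) and CLDN3 (2.48-fold, second probe at 0.01). CDH1 (E-cadherin) had 0.82, 0.83, 0.74 and 0.74 and was well above background in H460C alone (at least 1.56-fold higher from the channel intensities). With the scanner software's ratio its mean was 3.63, a value past the test. JUP, which links desmosomes and cadherins, had -0.96, -1.67, -0.98 and -1.76. Of 15 mesenchymal genes CDH11 was the 1 called, and VIM (vimentin) at 0.10, with saturated arrays, and FN1 at -0.27 were not. The sign of VIM depended on the ratio in use (-0.37 with normexp and loess, -0.25 with the scanner software's ratio). TJP1 (ZO-1), of the epithelial list, had a mean of -0.34, with arrays that divided by dye (-0.79, 0.08, -0.78 and 0.14). Of the keratins that mark simple epithelium, KRT8 (0.06), KRT18 (0.11) and KRT19 (-0.405) were well above background in every channel of both populations. KRT7 (-0.34) was well above background on 4 arrays in H460 and 0 in H460C. Of 7 marker genes of neuroendocrine cells 4 were well above background on all arrays in H460C and 2 in H460, and the measured ones went both ways, with CHGA (chromogranin A) at -1.19, past 2-fold on every array, NCAM1 at -0.19, INSM1 at 0.07 and CHGB at 0.95, the last well above background on no array in H460. Of 6 macrophage markers 1 was well above background on all arrays in either population, and of 7 lymphocyte markers 2 were in H460C and 1 in H460.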

How the data were processed

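RNA of H460C and of H460 was hybridized together on Agilent arrays of the human genome with a pair of dyes, and scans were read with Agilent Feature Extraction 10.1.1.1. The deposited value table gives, on the log2 scale, H460C (or H460R) relative to H460, with dye-swapped arrays already turned by the authors. The study's processing notes name limma, and the background correction and normalization behind the table are not given in the sources used here. Its columns correlated with normexp and loess values of the deposited intensities with r from 0.950 to 0.997. The deposited log10 ratio of the extraction software was used as an alternative. In 1 file its decimal points were lost and were restored by a constant divisor. The deposited flags (other values) marked saturation, outliers and probes well above background.

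The 4 H460C arrays lay on 1 slide. Arrays of each dye swap were averaged to 1 ratio per RNA sample. Probes were kept when well above background on every array in the H460C or the H460 channel (25560 of 41000). Spots with outlier flags were left out, 32 probes without a value in a sample were dropped, and the brightest probe stood for a gene. Symbols came from RefSeq accessions (25074 probes with an accession, 23958 with a symbol). Genes were tested by Rank Products, with exact p-values for the product of the ranks in the 2 ratios, adjusted by Benjamini-Hochberg over both directions (FDR of 0.05). The named genes were 15 per direction by rank product, members of the gene lists, and genes named by the study. Some genes that this rule selects are not reported here and are left out of the plots of single genes, but they count in group totals. The members and lists were chosen with earlier results of these data known. A bound ("at least") set the brighter channel against the lowest signal well above background, or the dim signal where higher, on intensities normalized per channel, so it can exceed the fold of the deposited ratio. Alternatives were other ratios, filters, probe rules, single dyes, each RNA sample left out, a 3-fold rule and limma. Scripts were tested on simulated data. Python 3.11.15, numpy 2.4.6, pandas 2.3.3, scipy 1.17.1, R 4.3.3 and limma 3.58.1 were used.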

Additional observations from a re-analysis of the deposited data

Results flagged for a closer look

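The arrays of H460R, which share the H460 RNA with those of H460C, gave values of opposite sign for 9 of the 30 leading genes on both RNA samples of each population. Of the 15 leading genes in each direction, 10 had the same sign in H460R, and the same share over all genes is not given here. Among the same-sign genes were EGR1 (5.25 in H460R, 3.68 in H460C), JUN (3.47, 3.69), PTGS2 (2.05, 3.98) and FBN2 (-1.74, -4.01). The populations were not compared by a test (the difference was not tested), and several of the H460R values lay close to 0. Among genes higher in H460C, the mean log2 ratio of H460R over H460 was -0.07 for S100A9 (3.93 in H460C), -0.17 for AQP3 (3.71), -0.11 for PLA2G3 (3.60) and -0.02 for FGFBP1 (3.60). Among genes lower in H460C, it was 0.43 for PLA2G7 (-4.80 in H460C), 0.45 for IGFBP7 (-3.58), 0.32 for FST (-3.50), 0.69 for SRPX (-3.40) and 0.18 for PXDN (-3.33).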

How the results depend on the processing

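No paired analysis was possible because H460C was set against a single H460 RNA. Rank Products is built on ranks, and limma, which uses the spread between the 2 ratios, called 7494 genes higher and 8540 lower in H460C (7988 and 9222 on the 4 arrays with a dye term). The RNA samples differed by less than hybridization noise, so that spread leaves out the spread between cultures. With a minimum log2 ratio of 1, limma called 544 higher and 424 lower. At least 2-fold on every array were 1433 genes higher and 918 lower with the scanner software's ratio, 943 and 833 with H460C in Cy3 only, and 881 lower with H460C in Cy5 only. With normexp and loess 326 were lower. At 3-fold, 209 were higher and 156 lower. Leaving out either RNA sample left 92 to 93 genes called higher and 88 lower, with 625 to 632 higher and 500 to 512 lower past 2-fold. No result changed direction past its threshold under any alternative run. Of 92 genes recomputed, 74 were called as reported. The scanner software's ratio ended 33 of these calls, the mean over probes 9, Cy3 alone 8, leaving out an RNA sample 5 to 6, Cy5 alone 2 and normexp 1. Requiring all 4 arrays, an alternative chosen after seeing the data, ended 2, FADS2 (0.93) and SEMA6A (1.09). Genes that could not be tested under a setting are not in these counts. With all 4 arrays required, 103 of the 111 genes called higher and 103 of the 112 called lower could be tested, and S100A8 could not. The sign of the median differed in 1 to 7 of the 49 or 50 gene lists with a value, by setting. The chemokine median moved most, by 1.23 without the filter on dim probes. For dim genes the signal over background limits the ratio to a bound.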

Other observations

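Signals of the TGF-beta family divided. INHBA, the subunit of activin A, had log2 ratios of 2.95, 3.11, 2.88 and 3.19 (8.18-fold higher, FDR = 0.0118, Rank Products), while the activin antagonist FST fell 11.3-fold and its relative FSTL1 had -2.38, -2.34, -2.30 and -2.37 (5.09-fold lower, FDR = 0.0235). The receptor TGFBR2 (-1.32) and the BMP target ID1 (-1.27) were past 2-fold lower on every array without a call. Over the 20 genes of this list the median was -0.16. The Notch target HEY1 had 3.11, 3.39 and 3.43 (10.1-fold higher, FDR = 0.00563), HES1, another target, was past 2-fold higher on every array (1.51), and the ligand JAG1 had a mean of 0.80. The median of 13 Notch genes was 0.14, with -0.05 for H460C in Cy3 only. Of 18 Wnt genes WNT3 (1.90) was past 2-fold higher and FZD8 (-1.33) past 2-fold lower on every array, and none was called, beside 0.557% and 0.562% of all genes.

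PLAU, the urokinase protease, rose 6.28-fold (2.45, 2.84, 2.42 and 2.89) and LOXL2, a collagen-crosslinking oxidase, 6.51-fold (2.58, 2.79, 2.56 and 2.88). IFI30, a lysosomal thiol reductase inducible by interferon, rose 10.0-fold (FDR = 0.00563, Rank Products). It was the 1 gene called of 24 interferon genes, beside 0.557% of all genes called higher and 0.562% called lower. The median of the 24 was 0.22. Past 2-fold on every array were 16.7% of them higher and 8.33% lower, beside 3.03% and 2.46% of all genes. Of 21 NRF2 targets HMOX1, heme oxygenase (1.64), GPX3 (1.98) and SOD2 (1.59) were past 2-fold higher on every array and NQO1 (-1.32) past 2-fold lower, beside 3.03% and 2.46% of all genes.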
